A study of Mus musculus with 18 samples.

Results

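A set of 903 short stretches of the mouse genome carried the repressive histone mark H3K27me3 in every library of embryonic medial ganglionic eminence (MGE) that was examined. They were found by joining the overlapping autosomal intervals of the 12 deposited interval lists into union regions, and by keeping the union regions that had an interval in all 12 lists and were less than 10 kb wide. Of 15649 autosomal union regions, 2368 had an interval in every list, and the 903 narrow regions described here are the narrowest of those. The remaining 826 regions of 10 kb to under 20 kb and 639 regions of 20 kb or more serve only for comparison. The regions were chosen by their presence in every list and by their union width, so neither is a finding, and levels and cover are given against broader regions as a description only.

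H3K27me3 is the trimethylated form of lysine 27 of histone H3. It is placed by Polycomb repressive complex 2, in which Ezh2 is a catalytic subunit, and it marks genes that are kept silent or poised, often at promoters rich in CG dinucleotides (CpG islands). Broad domains of the mark are known for clusters of developmental transcription factor genes, and the MGE is the ventral forebrain region that gives rise to many cortical interneurons.

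The mark was profiled by CUT&Tag, in which an antibody guides a transposase to tag nearby DNA. The groups were WT at E12.5, Ezh2 KO at E12.5, WT at E15.5 and Ezh2 KO at E15.5, with 3 biological replicates each. The embryos came from Nkx2.1-Cre C/C;Ezh2 F/+ males mated to Ai9 F/F;Ezh2 F/+ females, so WT and KO embryos alike carried 1 Nkx2.1-Cre allele and 1 Ai9 reporter allele. Cre from the Nkx2.1 locus deletes Ezh2 only in cells that express the driver and their descendants, and the dissected tissue can hold other cells. For E12.5 the whole MGE was taken, while for E15.5 Tom+ MGE was dissected under fluorescence. A difference between the stages thus cannot be told apart from this difference in dissection. MGEs of embryos with the same genotype were combined where applicable, so a library can hold several embryos. In such bulk tissue, fewer cells with the mark and less of the mark per cell cannot be told apart. Ezh2 had no interval in any list, so the lists do not check the deletion. Of 18 samples in all, 6 were heterozygous and are not analysed here.

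The depth of a library was recovered from its score column as the mean count per 200 bp window. E15.5 WT replicate 1 was the shallowest library, with a depth of 0.0751 and 573838 counts in its intervals, and replicate 2 of E12.5 WT the deepest, with 0.698 and 6846250. In E12.5 WT, replicate 3 had a depth of 0.481 and replicate 1 of 0.117. The E12.5 KO libraries lay between 0.212 and 0.272, the E15.5 WT libraries between 0.0751 and 0.15 and the E15.5 KO libraries between 0.179 and 0.346. Counts below were divided by the depth of their library relative to the average depth (scaled counts).

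Narrow regions were mostly much wider than the part that all libraries covered. Their union widths ran from 1000 to 9800 bp with a median of 7200 bp, and the part covered by an interval in all 12 libraries, the common core, had a median length of 1800 bp. The core was a single stretch in 866 regions, 2 or more stretches in 26 and absent in 11. In regions of 20 kb or more the core had a median of 10800 bp and was broken into 2 or more stretches in 371 of 639. Narrow regions also lay apart, with a median of 219 kb to the nearest other constitutive region, against 58 kb for regions of 20 kb or more. Just inside the width limit, 27 regions of 9800 bp had a median of 12.2 scaled counts per kb. Just outside it, 37 regions of 10000 bp had 17.1, among them those at Sgpp2 with 25.3 and BC034090 with 4.35.

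Most narrow regions sat on gene starts. A start of a protein-coding gene lay inside 568 of the 903 regions (62.9%), and 172 more (19.0%) held an end of a gene whose start was not in the promoter table. A further 93 (10.3%) lay within gene bodies and 70 (7.75%) overlapped no protein-coding gene. A start or end was thus held by 740 narrow regions (81.9%). For regions of 10 kb to under 20 kb it was 629 of 826 (76.2%). For those of 20 kb or more it was 468 of 639 (73.2%), although both of these classes are longer. Within narrow regions the share was 71.9% in the 96 under 5 kb, 82.9% in the 475 of 5 kb to under 8 kb and 83.4% in the 332 of 8 kb to under 10 kb. The start fell within the span of the common core in 411 of the 568 regions (72.4%). This share was higher in wider regions, with 84.2% at 10 kb to under 20 kb and 92.0% at 20 kb or more. Of the narrow regions 39 held 2 or more genes.

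The promoters inside narrow regions were rich in CG, and their sequences show how far this varied. The 250 bases before the start of 5 genes whose regions differed between genotypes or stages are printed below, 5′ to 3′ on the strand of the gene, with each CG dinucleotide in capitals. They are from RefSeq on GRCm38.p6, at chr10:120476470-120476719 (minus strand, Hmga2), chr15:25622300-25622549 (plus strand, Myo10), chr19:19111197-19111446 (minus strand, Rorb), chr1:178528875-178529124 (plus strand, Kif26b) and chr5:81020321-81020570 (plus strand, the first of 3 starts of Adgrl3).
Hmga2: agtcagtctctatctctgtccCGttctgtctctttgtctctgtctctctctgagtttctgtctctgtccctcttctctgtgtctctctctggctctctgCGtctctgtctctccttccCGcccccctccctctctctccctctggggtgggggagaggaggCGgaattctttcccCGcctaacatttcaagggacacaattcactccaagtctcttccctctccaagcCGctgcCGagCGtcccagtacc
Myo10: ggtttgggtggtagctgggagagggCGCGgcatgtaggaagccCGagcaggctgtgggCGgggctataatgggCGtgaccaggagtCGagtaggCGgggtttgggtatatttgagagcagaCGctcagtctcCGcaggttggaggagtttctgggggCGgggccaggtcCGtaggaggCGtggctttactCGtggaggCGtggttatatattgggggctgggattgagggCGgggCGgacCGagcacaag
Rorb: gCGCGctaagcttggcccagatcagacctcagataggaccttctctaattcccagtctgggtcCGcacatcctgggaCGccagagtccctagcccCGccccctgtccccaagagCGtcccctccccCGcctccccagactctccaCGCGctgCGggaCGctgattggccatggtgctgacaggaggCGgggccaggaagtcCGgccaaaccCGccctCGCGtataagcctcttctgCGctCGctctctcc
Kif26b: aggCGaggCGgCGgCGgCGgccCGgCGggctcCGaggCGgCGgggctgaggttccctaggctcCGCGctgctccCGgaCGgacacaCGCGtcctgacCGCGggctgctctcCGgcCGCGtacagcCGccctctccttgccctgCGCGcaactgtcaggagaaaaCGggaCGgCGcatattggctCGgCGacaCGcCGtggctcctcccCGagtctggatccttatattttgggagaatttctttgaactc
Adgrl3: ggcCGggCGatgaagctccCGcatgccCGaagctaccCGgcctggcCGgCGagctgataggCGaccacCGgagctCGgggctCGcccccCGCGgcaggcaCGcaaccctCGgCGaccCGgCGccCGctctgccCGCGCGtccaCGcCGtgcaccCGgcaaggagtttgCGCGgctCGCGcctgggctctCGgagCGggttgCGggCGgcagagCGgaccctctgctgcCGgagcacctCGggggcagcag
The Hmga2 stretch holds 8 CG and is 56.4% G or C. Myo10 has 17 CG (62.8% G or C) and Rorb 18 (66.0%), while Kif26b has 32 (68.4%) and Adgrl3 36 (76.8%). Sparse and dense promoters thus both occur in constitutive narrow regions.

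Over 689 promoter windows of 300 bp (250 bases before to 50 after a start) from 593 genes, the median was 20 CG dinucleotides, a G or C content of 63.7% and an observed over expected CG ratio of 0.689. Windows in regions of 20 kb or more were similar, with a median of 18 CG, 62.3% and 0.676 over 629 windows. The 18120 windows outside constitutive regions had a median of 13 CG, 56.0% and 0.561. A G or C content above 50% with a ratio above 0.6 was met by 62.0% of windows in narrow regions, 57.2% in regions of 20 kb or more and 46.2% of all 20085 windows in the table. The letters TATAAA occurred on either strand in 9.43% of windows in narrow regions, 8.9% of those in regions of 20 kb or more and 12.7% of all windows. The promoter table has no start on chromosome 18, which holds 28 of the narrow regions.

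**Figure D1:**
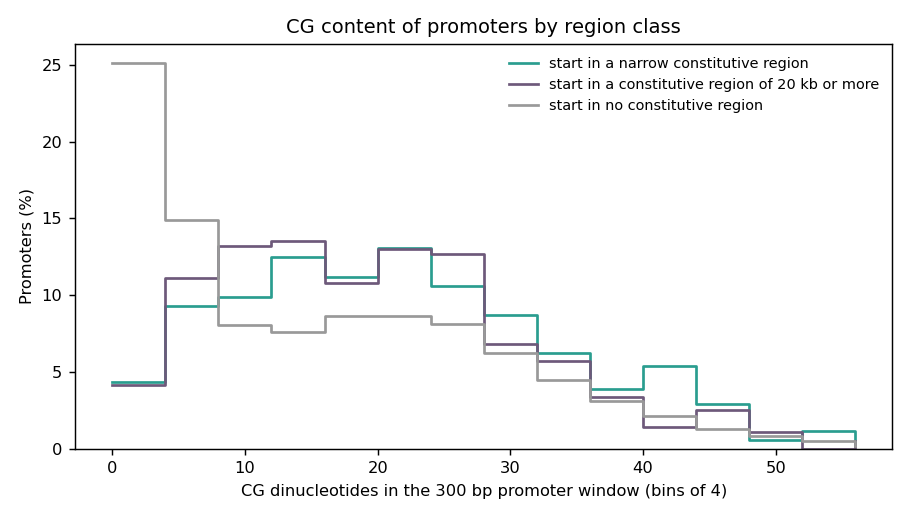
Share of promoters (vertical axis, %) by the number of CG dinucleotides in the 300 bp window (horizontal axis, bins of 4), for starts in narrow constitutive regions, in constitutive regions of 20 kb or more and in no constitutive region. The lines for narrow and broad regions lie close together, with medians of 20 and 18, while windows outside constitutive regions have a median of 13, with 25.1% of them in the lowest bin.

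The genes held by narrow and by broad regions were counted by gene list, as a description with no test. Narrow regions held 779 protein-coding genes, 3.77% of the 20665 on the autosomes, and regions of 20 kb or more held 743, or 3.6%. Among 195 homeobox and Pax genes, which pattern the embryo, 5 (2.56%) were in narrow regions and 146 (74.9%) in regions of 20 kb or more. Mixl1, Prrx2, Satb1 and Six4 were among those in narrow regions. The list was made from symbol patterns and lacks Mkx and Meox2, which are also homeobox genes in narrow regions. Of 73 forkhead, Sox and T-box factors 5 (6.85%) were in narrow and 34 (46.6%) in broad regions. Of 63 bHLH factors 7 were in narrow and 22 in broad regions, and of 122 zinc finger regulators and nuclear receptors 11 and 37.

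Lists of neuronal effector genes had more members in narrow regions than in those of 20 kb or more, but the regions of 10 kb to under 20 kb held similar or larger numbers, so this was not particular to narrow regions. Of 130 neurotransmitter receptor genes 23 (17.7%) were in narrow regions, 20 (15.4%) in those of 10 kb to under 20 kb and 11 in those of 20 kb or more. For 161 ion channel genes these numbers were 22 (13.7%), 26 (16.1%) and 11, and for 21 genes of neuropeptides and GABA machinery 4 (Pnoc, Sst, Tac1 and Trh), 5 and 1. The receptors included the dopamine receptors Drd2 and Drd5, the serotonin receptors Htr1a and Htr1b, the somatostatin receptors Sstr1 and Sstr2 and 5 metabotropic glutamate receptors. Channels were mostly potassium channel subunits, among them Kcnk3, Kcnk6, Kcnk12 and Kcnk13 of the leak channel family. Of 117 genes of Wnt, BMP, FGF, hedgehog and Notch signalling, 21 (17.9%) were in narrow regions, 20 in those of 10 kb to under 20 kb and 30 in broad regions. The 21 included the ligands Wnt2, Bmp8a, Bmp8b and Fgf10, the BMP antagonists Chrd, Grem1 and Fst, and the receptors Fzd2, Fzd5, Fzd6 and Fzd9. Of 183 axon guidance and adhesion genes 8 were in narrow regions, 15 in those of 10 kb to under 20 kb and 9 in broad regions. None of the 18 housekeeping genes lay in any constitutive region.

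**Figure D2:**
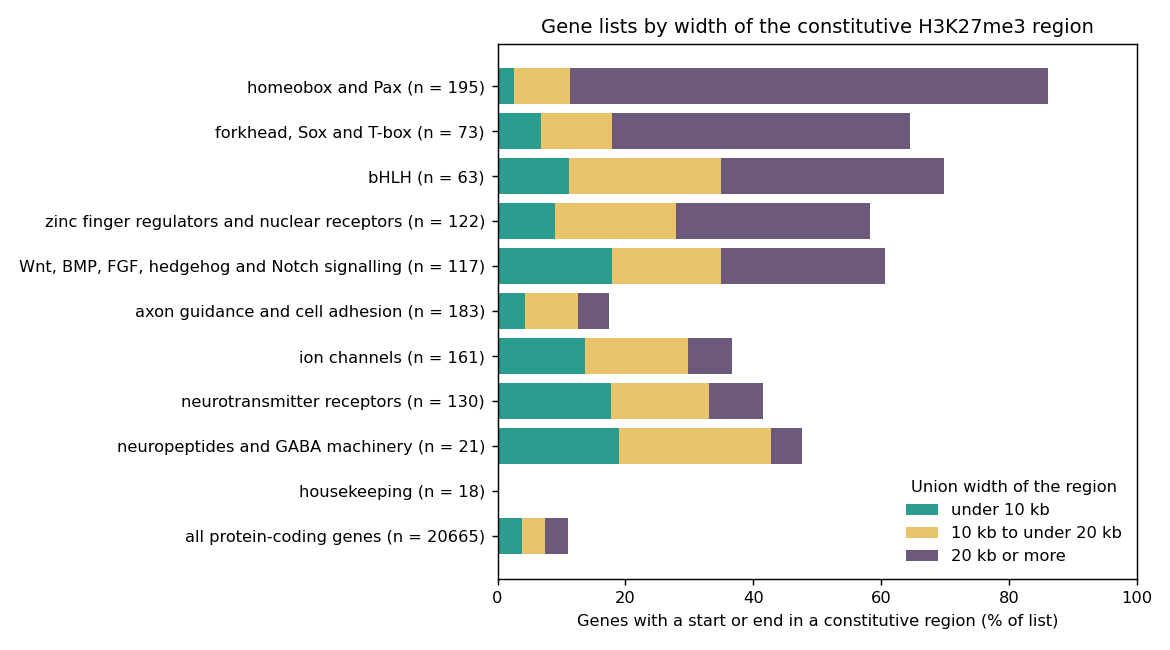
Share of each gene list (horizontal axis, %) with a gene start or end in a constitutive H3K27me3 region, split by union width. Homeobox and Pax genes are mostly in regions of 20 kb or more (74.9%, against 2.56% in narrow regions), while ion channel and receptor genes are more often in regions under 20 kb, and housekeeping genes are in none.

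The lists of cell type genes were short, and narrow regions held 3.77% of all autosomal protein-coding genes. Of 12 MGE identity genes 1 (Satb1, 8.33%) was in a narrow region and 9 were in regions of 20 kb or more. Of 12 genes of other forebrain regions these numbers were 0 and 11. Gfap was the only one of 7 glial genes (14.3%) held by narrow regions, and 3 were in broad regions. Erg and Kdr were 2 of 11 blood and endothelial genes (18.2%) in narrow regions, and broad regions also held 2. These are positions of the mark and not expression, so they do not check which cells the tissue held.

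Signal in the narrow regions was low and varied between libraries. The mean over the 12 libraries had a median of 10.8 scaled counts per kb (5th to 95th percentile 5.36 to 31.5), against 32.6 for regions of 20 kb or more. The coefficient of variation over libraries had a median of 37.2%, against 26.4%. At E12.5 the narrow regions took 5.01 ± 0.739% (SD, n = 3) of all interval counts in WT and 3.75 ± 0.871% in KO. The same shares at E15.5 were 3.87 ± 0.331% in WT and 4.06 ± 0.284% in KO.

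The highest signal per kb was at Mkx, a homeobox gene known from tendon, with 89.2 scaled counts per kb over 12 libraries. The region in the gene body of Mepe, which encodes a bone matrix protein, had 78.6. Those at Sox18, an endothelial transcription factor, had 68.2, at Kcnk12 65.8 and at Adam33 63.1. The lowest were at Sfxn5 with 2.83, Pdzrn3 with 3.28 and Mgll with 3.29. Mkx (chr18:7000001-7009000) also had the smallest coefficient of variation, 14.7%. At E12.5 its scaled counts were 891, 953 and 927 in WT and 560, 614 and 838 in KO, and for E15.5 they were 747, 786 and 782 in WT and 818, 877 and 844 in KO. E12.5 KO replicates 1 and 2 were the lowest, and the E12.5 genotype difference was -0.46 on the log2 scale (SE 0.22, edgeR adjusted p = 0.0757), and 0.07 with TMM factors. Megf11 (17.7%) was the next most even.

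Within the lists, the leading members were Id3 (51.2 scaled counts per kb), an inhibitor of bHLH factors, and Ferd3l (40.3) among bHLH genes, Kcnk12 (65.8) and Kcnk13 (54.7) among channels, and Galr1 (36.9), Sstr1 (36.3) and Htr1a (35.1) among receptors. Bmp8a had 33.1 and Bmp8b 28.7, and Pcdh8, a protocadherin, had 41.0. Sst, the neuropeptide of many MGE-derived interneurons, was low with 7.35, and so were Gfap with 7.54 and Trh with 7.07.

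Libraries differed both in the level of the narrow regions and in how much of their width the list covered. The median share of the union width covered was 53.7%, 90.3% and 73.7% in the E12.5 WT replicates and 63.6%, 47.2% and 52.0% in the E12.5 KO replicates. For E15.5 this share was 37.8%, 54.5% and 61.5% in WT and 65.7%, 64.5% and 50.0% in KO. The median scaled counts per kb of union width at E12.5 were 12.2, 17.8 and 15.4 in WT and 7.99, 8.30 and 13.1 in KO. Those at E15.5 were 8.07, 8.65 and 10.3 in WT and 10.2, 9.10 and 8.27 in KO. E12.5 WT replicates 2 and 3, the deepest, had the widest cover and the highest level, and E12.5 KO replicate 3 stood above the other E12.5 KO libraries. Group means were 15.1 ± 2.81 and 9.8 ± 2.86 for WT and KO at E12.5, and 9.01 ± 1.16 and 9.19 ± 0.968 for WT and KO of the later stage (SD, n = 3). Per kb of covered length they were 22.1 ± 1.31, 19.0 ± 6.54, 19.0 ± 2.8 and 16.3 ± 1.0 in the same order. Counts outside the intervals of a list are not in the lists, and the part of depth in these levels was not tested.

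**Figure D3:**
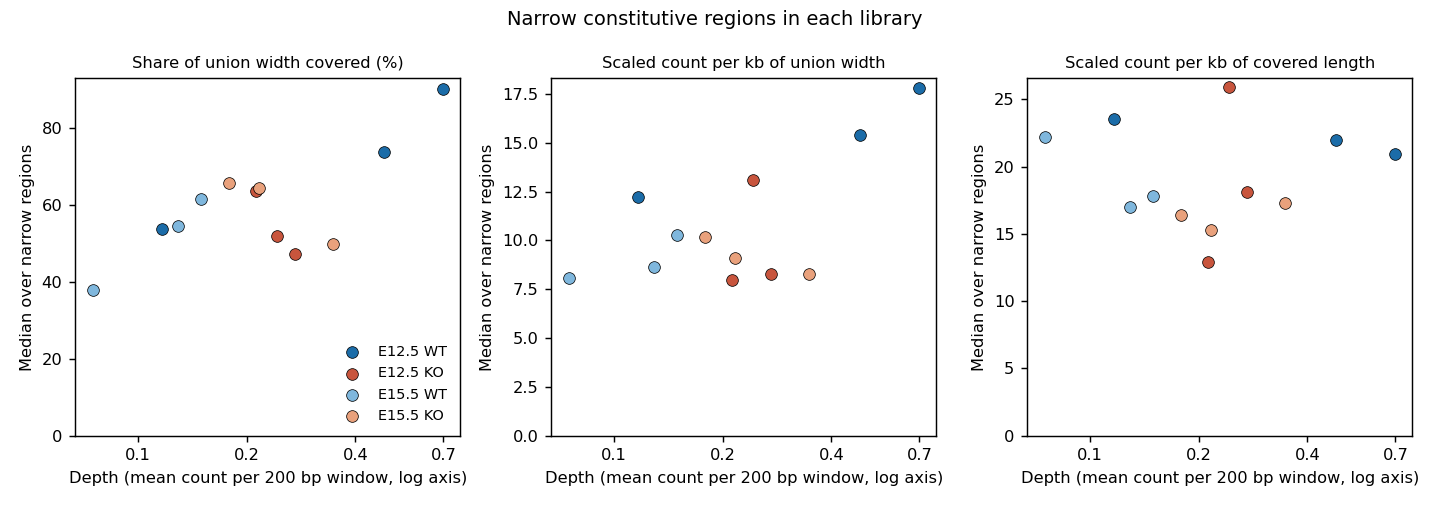
Median over the 903 narrow regions of the share of union width covered (left, %), the scaled count per kb of union width (middle) and the scaled count per kb of covered length (right), each against the depth of the library (log axis), 1 point per library coloured by group. E12.5 WT replicates 2 and 3 are at the right edge with 90.3% and 73.7% of the width covered and with 17.8 and 15.4 scaled counts per kb, and on the right panel the E12.5 KO libraries span the range of the other groups, from 12.9 to 25.9.

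Ezh2 KO at E12.5 was compared with WT to ask how loss of the enzyme changed the mark in regions that kept it. Of the 903 narrow regions 330 were lower and 0 higher in KO (edgeR quasi-likelihood test over all 2368 constitutive regions, Benjamini-Hochberg adjusted p below 0.05). Over all 2368 regions 39.4% were lower and 0.591% higher, so the 36.5% of narrow regions that were lower were close to the background. At an unadjusted p below 0.05, 481 were lower and 0 higher, and of all 2368 regions 1287 passed this in either direction. DESeq2 scaled the libraries by its own size factors and not by depth, and its median log2 change over all regions was 0.02. It called 31 lower and 13 higher, where 6.42% and 5.83% of all regions were. The median log2 change was -0.66 in narrow regions and -0.58 over all regions. TMM factors, which assume that most regions do not change and move the median of all regions to -0.05, left 30 lower and 7 higher (7.35% and 4.01% of all regions), and all 30 were among the 330. The mean covered length was shorter in KO in 324 of the 330. Over all 903 narrow regions its median log2 change was -0.39, so shorter cover was not particular to the regions called. With counts taken per covered length, 55 narrow regions were lower and 1 higher at an unadjusted p below 0.05. Of all 2368 regions 188 passed this in either direction. By adjusted p, 1 narrow region was lower and 0 higher (0.507% and 0.127% of all regions). The 1 region, named after its value was seen, was at Prlhr, which encodes a neuropeptide receptor (log2 change -1.13, edgeR adjusted p = 0.047). Among the 373 narrow regions whose mean covered length differed by at most 1.25-fold between the genotypes, 78 (20.9%) were lower and the median was -0.54. The same share was not computed over all constitutive regions covered alike, so the 20.9% cannot be set against a background. The number lower was 669 without KO replicate 3, 62 without WT replicate 2, 119 without WT replicate 3, 85 without KO replicate 1 and 64 without KO replicate 2.

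Hmga2, a chromatin protein of embryonic and stem cells, was among the regions with the smallest p (chr10:120471601-120480000, promoter printed above). Its scaled counts were 186, 238 and 205 in E12.5 WT and 61.2, 38.2 and 85.5 in E12.5 KO, with every KO library below every WT library. The log2 change was -1.78 (SE 0.31, edgeR adjusted p = 1.07e-06), -1.24 with TMM factors (adjusted p = 0.000783) and -1.11 per covered length (adjusted p = 0.0755). The covered length was 4800, 7000 and 6000 bp in WT and 3800, 2800 and 4400 bp in KO.

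Kif26b encodes a kinesin family protein (chr1:178527201-178533600), and the scaled counts at its CG-dense promoter were 292, 392 and 347 in WT and 129, 91.6 and 193 in KO at E12.5. The groups did not overlap in scaled counts, and the covered length was 4600 to 5600 bp in WT and shorter or equal, 3600 to 4600 bp, in KO. The log2 change was -1.33 (SE 0.27, edgeR adjusted p = 7.91e-05), -0.80 with TMM factors (adjusted p = 0.00283) and -0.96 per covered length (adjusted p = 0.109). Pappa, which encodes a protease of IGF-binding proteins, had 53.2, 99.7 and 96.8 in WT and 24.5, 7.63 and 9.62 in KO, with the covered length at 600 and 1000 bp in KO replicates 2 and 3. Its log2 change was -2.65 (SE 0.39, edgeR adjusted p = 1.26e-08), and -0.88 per covered length (adjusted p = 0.569). No base of the Pappa region was covered in all 12 libraries.

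At Myo10, a myosin of filopodia (chr15:25618801-25628200), scaled counts were 51.0, 56.9 and 54.1 in WT and 22.0, 9.54 and 11.8 in KO. The log2 change was -1.93 (SE 0.40, edgeR adjusted p = 7.09e-05) and -0.54 per covered length (adjusted p = 0.754). The region in the body of Gm973 changed by -1.69 (SE 0.35, edgeR adjusted p = 9.55e-05), and by -0.38 per covered length (adjusted p = 0.82). The call at each of these 5 regions was kept in every alternative that could be fitted except that per covered length.

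By gene list, the lower calls at E12.5 fell in all 9 lists of regulators, signals and neuronal genes. They took 9 of 21 signalling regions, 11 of 23 receptor regions, 8 of 22 channel regions, 5 of 11 zinc finger and nuclear receptor regions and 4 of 5 forkhead and Sox regions. They also took 3 of 5 homeobox regions, 2 of 4 neuropeptide regions, 2 of 8 guidance regions and 1 of 7 bHLH regions. In the 105 distinct regions of these 9 lists, 45 (42.9%) were lower with a median log2 change of -0.66, equal to that of all narrow regions. That share lay near the 36.5% of all narrow regions and the 39.4% of all constitutive regions that were lower. With TMM factors 2 of the 105 were lower and 2 higher (1.9% each), against 7.35% and 4.01% of all constitutive regions. Per covered length 11 of the 105 had an unadjusted p below 0.05, against 188 of all 2368 regions. By adjusted p 0 of the 105 were called by edgeR, where 0.507% of all regions were lower and 0.127% higher. Sst had 55.4, 74.8 and 71.9 in WT and 33.1, 21.9 and 44.9 in KO, with no overlap, and Sst changed by -1.04 (SE 0.35, edgeR adjusted p = 0.0164). With TMM factors it was -0.50 (adjusted p = 0.22). Gfap changed by -1.07 (edgeR adjusted p = 0.0126) while TMM factors gave -0.52 (adjusted p = 0.135). Leaving out E12.5 WT replicate 2 or KO replicate 1 ended both calls, and that at Sst also ended without WT replicate 3 or KO replicate 2. Both calls also ended with DESeq2, in the fit of only the 6 libraries compared and per covered length.

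At E15.5 few narrow regions differed between the genotypes. By edgeR 3 were lower and 1 higher in KO, where 0.507% and 1.18% of all constitutive regions were, and the median log2 change was 0.00. At an unadjusted p below 0.05, 14 were lower and 20 higher, and of all 2368 regions 187 passed this in either direction. TMM factors gave 7 lower and 11 higher (1.52% and 2.62% of all regions). DESeq2 gave 10 and 18 (1.98% and 3.25%). The 3 lower regions were at Ntm, Rorb and Adgrl3, and the 1 higher was at chr10:117495201-117503000, outside genes. None of the 4 was called per covered length, where 1 narrow region was lower and 0 were higher (0.0422% and 0.0% of all regions) and the median of narrow regions was -0.17. Each count went to 0 without WT replicate 2 or WT replicate 3 or E12.5 KO replicate 3. The lower count was also 0 without KO replicate 3 and 1 without KO replicate 2 or E12.5 WT replicate 3. The higher count was also 0 without KO replicate 1 and 2 without E12.5 WT replicate 1.

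Ntm encodes neurotrimin, a neuronal adhesion protein (chr9:29409201-29417000). Its scaled counts were 135, 119 and 144 in E15.5 WT and 58.2, 68.6 and 30.1 in E15.5 KO, and 90.8, 119 and 128 against 53.9, 34.4 and 43.8 at E12.5. The genotypes did not overlap at either stage. The log2 change was -1.36 at E15.5 (SE 0.36, edgeR adjusted p = 0.0191), -1.37 at E12.5 (SE 0.35, adjusted p = 0.00154) and, with both stages together, -1.37 (SE 0.25, adjusted p = 6.38e-06). Over both stages it was -1.10 with TMM factors (edgeR adjusted p = 0.00125) and -0.95 per covered length (adjusted p = 0.0205), and the call was kept in all 17 alternatives. The E12.5 call ended with TMM factors (adjusted p = 0.0755), with DESeq2 and per covered length, and the E15.5 call ended per covered length and without any 1 of 5 libraries, E15.5 WT replicates 2 and 3, E15.5 KO replicates 1 and 3 and E12.5 KO replicate 3.

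Rorb encodes a nuclear receptor used as a marker of cortical layer neurons (chr19:19107601-19112600). It had 34.6, 68.3 and 101 in E15.5 WT and 34.9, 21.7 and 27.8 in E15.5 KO, so WT replicate 1 lay within the KO range. The log2 change was -1.33 (SE 0.37, edgeR adjusted p = 0.0384) and -1.03 per covered length (adjusted p = 0.502). Adgrl3, a latrophilin (chr5:81019401-81029200), had 38.0, 78.4 and 60.7 against 32.0, 18.1 and 20.3 and changed by -1.39 (SE 0.39, edgeR adjusted p = 0.0412). Per covered length it was -0.12 (adjusted p = 0.968), with cover of 1600, 4600 and 4400 bp in WT and 1600, 1200 and 1600 bp in KO. The Rorb and Adgrl3 calls ended without any 1 of E12.5 WT replicate 3, E12.5 KO replicate 3, E15.5 WT replicates 2 and 3 and E15.5 KO replicates 2 and 3.

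Over both stages together 73 narrow regions were lower and 1 higher in KO, where 11.7% and 1.52% of all constitutive regions were by edgeR. With TMM factors, which move the median of all regions from -0.28 to -0.02, these were 29 and 22 (6.59% and 5.87% of all regions), and all 29 were among the 73. DESeq2 called 29 and 27 (6.21% and 6.84%). Per covered length 3 were lower and 0 higher (0.718% and 0.169% of all regions), and those at Ntm and Vwc2 were called in all 3 fits. Vwc2, which encodes a secreted BMP antagonist, had 131, 172 and 157 scaled counts in WT and 57.6, 50.6 and 72.6 in KO at E12.5. Its values for E15.5 were 131, 173 and 225 in WT and 100, 102 and 78.2 in KO. Every KO library lay below every WT library, and the region changed by -1.14 on the log2 scale (SE 0.23, edgeR adjusted p = 7.2e-05) and by -0.83 per covered length (adjusted p = 0.0481). The region higher in KO was at Sulf1, which encodes a sulfatase of heparan sulfate, and changed by 0.74 (SE 0.26, edgeR adjusted p = 0.043), a call that was lost in 10 of 17 alternatives. Leaving out E12.5 KO replicate 3 gave 355 lower, and leaving out E12.5 WT replicate 1 gave 159. Without 1 other library it was 21 (E12.5 WT replicate 2), 29 (E12.5 WT replicate 3), 33 (E12.5 KO replicate 1), 25 (E12.5 KO replicate 2), 32 (E15.5 WT replicate 2), 27 (E15.5 WT replicate 3), 31 (E15.5 KO replicate 2) or 19 (E15.5 KO replicate 3).

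**Figure D4:**
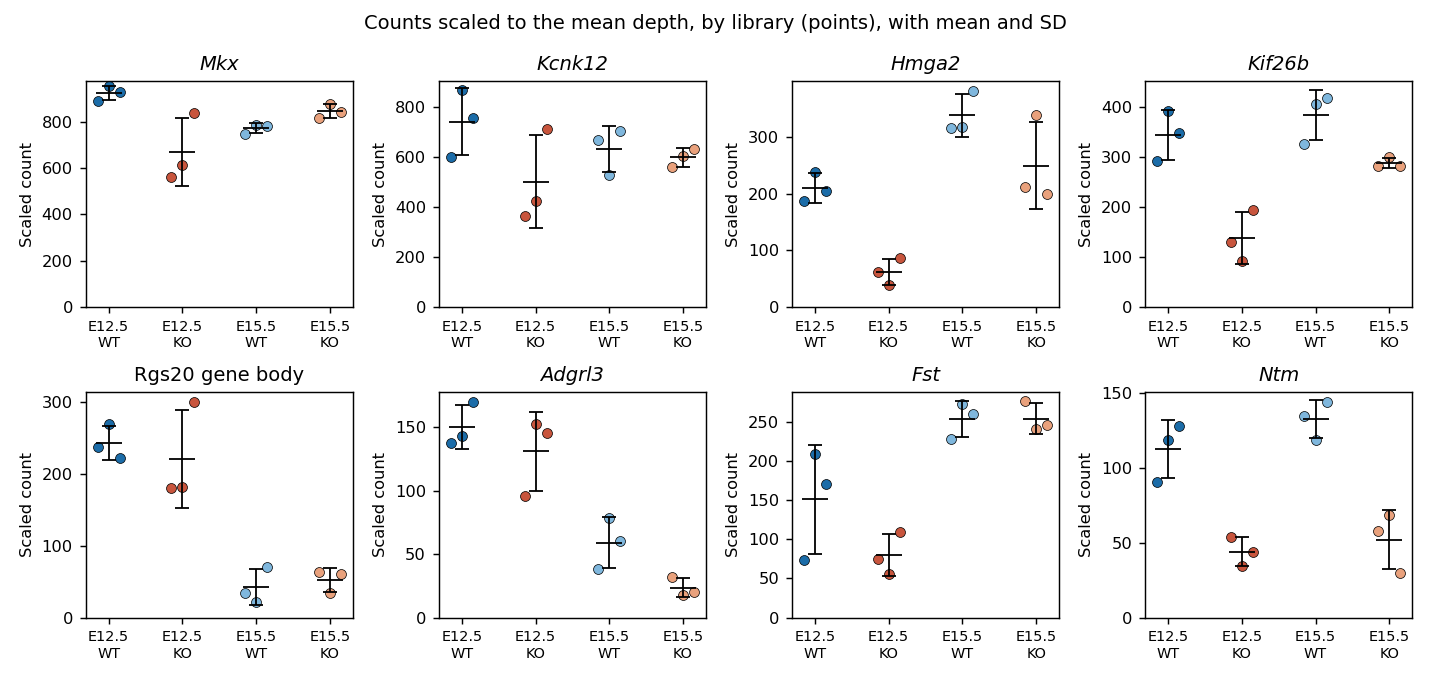
Scaled counts (vertical axes, linear from 0) of 8 narrow regions in each of the 12 libraries, as points, with the group mean and SD (n = 3) as bars. Mkx and Kcnk12 are high in every library, Hmga2 and Kif26b are lower in E12.5 KO than in the other groups, Ntm is lower in KO at both stages, and the Rgs20 gene body and Adgrl3 are lower at E15.5 than at E12.5 in both genotypes.

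Whether the genotype difference itself differed between the stages was tested as an interaction. The dissection differed between the stages as well. By edgeR 31 narrow regions had a higher KO against WT change at E15.5 than at E12.5 and 0 a lower one, where 6.67% and 0.0% of all constitutive regions did. At an unadjusted p below 0.05 these were 244 and 1, and of all 2368 regions 701 passed this in either direction. TMM factors gave 3 and 1 (1.94% and 0.211% of all regions) and DESeq2 4 and 2 (1.98% and 0.591%). Per covered length edgeR called 0 of either (0.0% and 0.0422%), with 14 and 9 at an unadjusted p below 0.05, against 68 of all 2368 regions in either direction. The median difference was 0.71 on the log2 scale, against 0.61 over all regions and 0.07 over all regions with TMM factors. Leaving out E12.5 KO replicate 3 gave 418 higher and leaving out E12.5 WT replicate 1 gave 130, and it was between 6 and 11 without E12.5 WT replicate 2 or 3, E12.5 KO replicate 1 or 2, E15.5 WT replicate 1 or 2, or E15.5 KO replicate 1 or 2.

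From E12.5 to E15.5 in WT, 424 narrow regions were lower and 13 higher, where 45.1% and 2.74% of all constitutive regions were by edgeR. Stage and dissection cannot be told apart here, since the whole MGE was taken at E12.5 and Tom+ MGE at E15.5. The 47.0% of narrow regions that were lower were again close to the background, and the median log2 change was -0.74 against -0.62 over all regions. With TMM factors, which move the median of all regions to -0.09, 188 were lower and 74 higher (22.4% and 16.9% of all regions). DESeq2 called 143 and 97 (17.9% and 21.4%). All 188 and 13 of the 74 were also called with depth scaling. The mean covered length was shorter at E15.5 in 421 of the 424, and over all narrow regions its median log2 change was -0.45. Per covered length 19 were lower and 5 higher (3.38% and 1.1% of all regions). Of the 311 narrow regions covered alike within 1.25-fold, 65 were lower (20.9%) and 9 higher, and this too was not computed over all constitutive regions. Without E12.5 WT replicate 2, E15.5 WT replicate 1 or E15.5 WT replicate 2 the lower count was 239, 258 or 260, and the higher count was 8 without E12.5 WT replicate 3 and 7 without E15.5 WT replicate 3.

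Some stage differences in WT were large, and 19 lower and 4 higher regions were called in all 3 fits, which use the same counts. Per covered length, the strictest of the 3, 2.1% of narrow regions were lower and 0.554% higher. Over all constitutive regions these shares were 3.38% and 1.1%, so narrow regions did not stand out. The region in the body of Rgs20, a regulator of G protein signalling (chr1:5017601-5026400), had 237, 269 and 222 scaled counts in E12.5 WT and 34.6, 22.1 and 71.1 in E15.5 WT, and 180, 182 and 300 against 64.0, 33.7 and 60.9 in KO. The stages did not overlap in either genotype. The log2 change was -2.47 in WT (SE 0.36, edgeR adjusted p = 7.76e-09) and -2.06 in KO (SE 0.34, adjusted p = 1.92e-07), and per covered length it was -1.47 (adjusted p = 0.00787) and -1.71 (adjusted p = 6.1e-05). Both calls were kept in all 18 alternatives.

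Foxo3, a forkhead factor, had 193, 195 and 234 scaled counts in E12.5 WT and 31.1, 54.2 and 58.9 in E15.5 WT (log2 change -2.06, SE 0.37, edgeR adjusted p = 1.63e-06; per covered length -1.30, adjusted p = 0.0184). The region in the body of Rfx6, a winged helix factor of the endocrine pancreas, changed by -2.38 (SE 0.40, edgeR adjusted p = 4.67e-07). Both calls were kept in every alternative that could be fitted, and at both regions the stages did not overlap in WT. The 19 also held the signalling ligands Fgf10 (log2 change -1.71, edgeR adjusted p = 5.26e-05) and Wnt2 (-1.73, adjusted p = 3.95e-05), and the leptin receptor Lepr (-1.55, adjusted p = 0.000771), named here after their values were seen. Meox2, a homeobox factor of mesoderm, changed by -1.64 (SE 0.30, edgeR adjusted p = 2.49e-06) but by -0.48 per covered length (adjusted p = 0.443), where its cover was 3400 to 6200 bp at the earlier stage and 2000 to 2400 bp at the later.

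The 4 regions higher at E15.5 in all 3 fits were in the bodies of Mepe and Flt1 and at chr1:39754601-39757800 and chr16:30715601-30720000, outside protein-coding genes. Mepe had 104, 142 and 123 in E12.5 WT and 180, 239 and 359 in E15.5 WT and changed by 1.07 (SE 0.30, edgeR adjusted p = 0.00188). Its call ended without E15.5 WT replicate 3, at an adjusted p of 0.0529. In KO it went from 187, 90.6 and 110 to 335, 448 and 323 and changed by 1.52 (SE 0.29, edgeR adjusted p = 1.4e-05). Flt1, a receptor of vascular growth factor, had 31.0, 7.44 and 9.73 against 96.9, 66.3 and 46.8 in WT, in intervals of 200 to 800 bp (log2 change 2.43, SE 0.42, edgeR adjusted p = 9.32e-07). The depths of these libraries were 0.117, 0.698 and 0.481 at E12.5 and 0.0751, 0.129 and 0.15 at E15.5. Within each stage, the shallower the WT library, the higher was its scaled count at Flt1. The part of depth in this change was not tested. A similar region in the body of Pacs1, covered over 200 to 1600 bp, changed by 2.07 (SE 0.38, edgeR adjusted p = 3.61e-06), and by 0.92 per covered length (adjusted p = 0.194).

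By list, the lower calls in WT took 13 of 23 receptor regions, 11 of 21 signalling regions, 9 of 22 channel regions and 4 of 7 bHLH regions, and over the 105 regions of the 9 lists 49 were lower and 3 higher. With TMM factors 24 were lower and 11 higher. The 46.7% of the 105 that were lower lay near the 45.1% of all constitutive regions and the 47.0% of all narrow regions, and with TMM factors 22.4% of all constitutive regions were lower and 16.9% higher. Sstr1 went from 301, 490 and 440 to 194, 217 and 248 (log2 change -0.91, SE 0.28, edgeR adjusted p = 0.00544), and TMM factors gave -0.38 (adjusted p = 0.0688). The Sstr1 call also ended with DESeq2 and per covered length. Id3 went the other way, from 301, 444 and 351 to 602, 647 and 582 in WT (log2 change 0.73, SE 0.25, edgeR adjusted p = 0.0105) and from 223, 375 and 371 to 667, 815 and 641 in KO (log2 change 1.13, SE 0.25, adjusted p = 0.000143). The stages did not overlap at Id3 in either genotype. With TMM factors the 2 changes were 1.26 and 1.10 (edgeR adjusted p = 1.72e-06 and 2.79e-06), and the WT call ended per covered length (0.86, adjusted p = 0.0594) and without E12.5 WT replicate 3 or E15.5 WT replicate 2.

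In KO the same stage comparison was nearly even, with 50 narrow regions higher and 35 lower at E15.5, where 9.97% and 8.4% of all constitutive regions were by edgeR. As in WT, the dissection also differed between the stages. The median log2 change was -0.07, against -0.02 over all regions. TMM factors gave 104 higher and 113 lower (16.8% and 16.6% of all regions) and called all 85 alike. DESeq2 gave 109 and 116 (17.3% and 15.8%). Per covered length 16 were higher and 17 lower (1.77% and 1.88%, against 1.98% and 3.76% of all regions). Of these, 14 and 5 were called in all 3 fits, which was not counted over all constitutive regions. The mean covered length was longer at E15.5 in 45 of the 50 higher regions and shorter in 31 of the 35 lower ones. Over all narrow regions its median log2 change was 0.15. The higher count was 25 without E12.5 KO replicate 2, 99 without E12.5 KO replicate 3 and 32 without E15.5 KO replicate 1, and the lower count was 16 without E12.5 KO replicate 3, 12 without E15.5 KO replicate 2 and 13 without E15.5 KO replicate 3.

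Hmga2 had one of the smallest p among the higher regions. It went from 61.2, 38.2 and 85.5 to 211, 338 and 199 in KO (log2 change 2.02, SE 0.31, edgeR adjusted p = 2.22e-08), and was called in all 18 alternatives, with 1.41 per covered length (adjusted p = 0.000727). In WT it went from 186, 238 and 205 to 315, 317 and 381 and changed by 0.68 (SE 0.29, edgeR adjusted p = 0.0426) that was lost in 9 of 18 alternatives. The 2 comparisons share no library, but the E12.5 KO values also enter the genotype comparison above. Fst, the activin antagonist follistatin, went from 74.7, 56.3 and 109 to 276, 240 and 245 in KO (log2 change 1.66, SE 0.31, edgeR adjusted p = 6.02e-06) and was also called in all 18 alternatives. Myo10 changed by 2.68 (SE 0.40, edgeR adjusted p = 8.53e-09) but by 0.47 per covered length (adjusted p = 0.633), where its cover was 600 to 2400 bp at the earlier stage and 4600 to 7800 bp at the later.

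Among the lower regions in KO, Adgrl3 had the smallest p, and its scaled counts went from 95.5, 152 and 145 to 32.0, 18.1 and 20.3 (log2 change -2.50, SE 0.37, edgeR adjusted p = 9.98e-09). Per covered length the change was -0.32 (adjusted p = 0.738), with cover of 6200 to 7400 bp at the earlier stage and 1200 to 1600 bp at the later. In WT it changed by -1.32 (SE 0.36, edgeR adjusted p = 0.00153), and by -0.14 per covered length (adjusted p = 0.892). Chd5, a chromatin remodeller of neurons, changed by -2.15 (SE 0.39, edgeR adjusted p = 2.29e-06) and Flrt2, a guidance and adhesion protein, by -1.75 (SE 0.37, adjusted p = 6.41e-05). Neither was called per covered length (adjusted p = 0.149 and 0.0544).

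**Figure D5:**
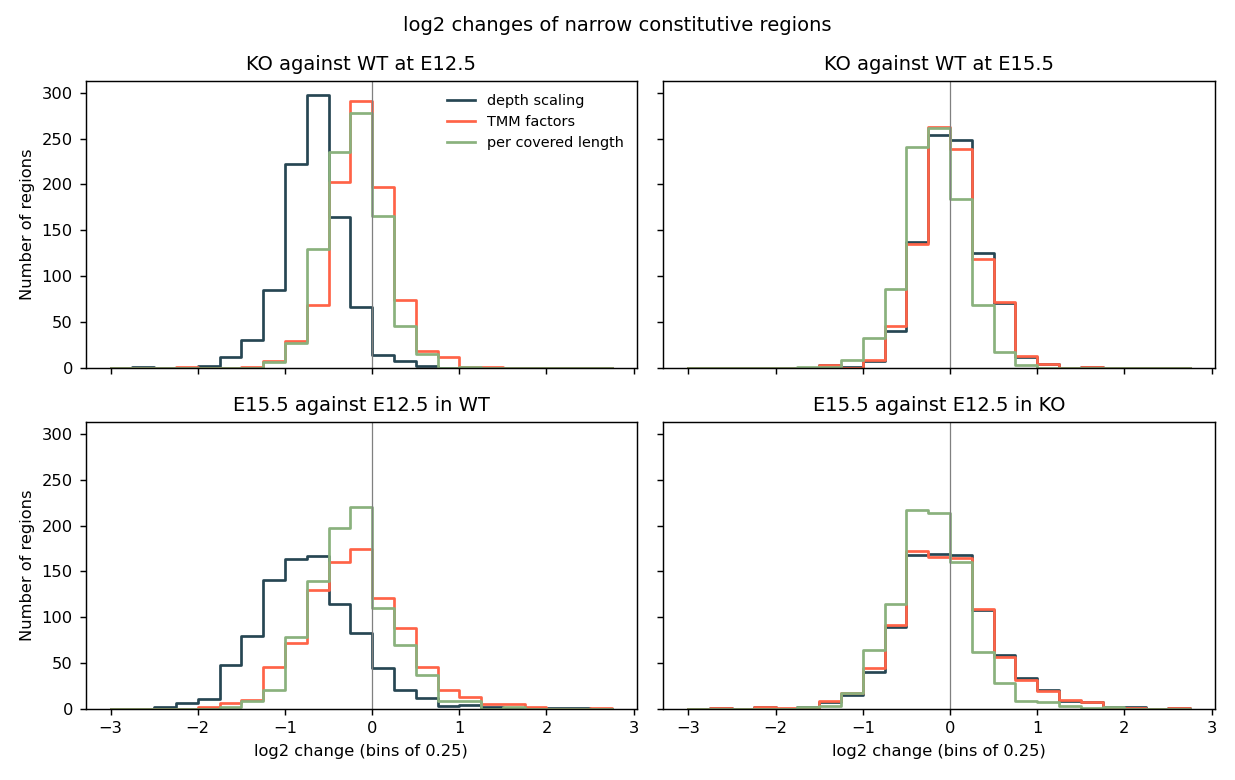
Number of narrow regions (vertical axis) by log2 change (horizontal axis, bins of 0.25) in the 4 comparisons of genotype and stage, with counts scaled by depth, with TMM factors and per covered length. The depth-scaled line is shifted to the left of 0 for KO at E12.5 (median -0.66) and for stage in WT (median -0.74), where the other lines lie closer to 0, and in the other 2 comparisons the depth and TMM lines nearly coincide around 0, while the medians per covered length are -0.17 and -0.21.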

How the data were processed

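H3K27me3 CUT&Tag interval lists of 12 libraries were analysed, with groups taken from the labels (genotype, embryonic day). The authors deposited 1 list per library without a header, so intervals were not pooled over replicates. Per the submitters' processing notes the tools were cutadapt, Bowtie2, SAMtools, Picard, deepTools and SICER, on GRCm38/mm10, and versions and settings are not given in the sources used here. The count column was deposited by the authors as whole numbers that are not normalized. The score column was deposited by the authors and, in intervals of 1 window, equalled the negative natural log of a Poisson probability of the count, which gave the mean count per 200 bp window. That this depth is proportional to total reads is an assumption.

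Overlapping autosomal intervals were joined. Counts per region were tested with edgeR 4.0.16 (quasi-likelihood, R 4.3.3) over all 2368 regions found in every list, with 4 groups in 1 fit, depth-scaled library sizes and Benjamini-Hochberg adjustment over all regions at 0.05. In simulated counts with 200 regions changed 2-fold at E12.5, 62.5% of these were called, with 7 false calls. The simulated counts were drawn without interval calling, so they cannot show effects of covered length. A region lost from any list is outside the set, and counts cover only called intervals. The SE is the size of a change over the root of its F statistic. Alternatives were TMM factors, DESeq2 1.42.0, fewer libraries, a mean count of at least 50, like covered length (1.5-fold), the replicate block and leaving out each library, and counts per covered length were chosen after seeing the data. DESeq2 used its own size factors and not the depth, so it differs from the main fit in scaling as well as in the test. The labels call the replicates biological, and the p-values measure the spread between these libraries.

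Gene starts were from a RefSeq promoter table of GRCm38.p6, which has starts for 16457 of 20665 autosomal protein-coding genes. Either gene end was used for the others. A gene start, sequence or list match is a description. Named regions are, for each of 6 contrasts, up to 5 higher and 5 lower with the smallest p, the 5 highest and 3 lowest per kb, up to 3 leaders of each gene list, the 3 widest and narrowest (ties by position) and the 3 most even. Antisense genes cannot be told apart in these unstranded intervals. Some regions that the rule names are not reported here. Members and lists were chosen with earlier results of these data known. Other software was Python 3.11.15, numpy 2.4.6, pandas 2.3.3, scipy 1.17.1 and matplotlib 3.10.9.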

Additional observations from a re-analysis of the deposited data

Results flagged for a closer look

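At 7 named narrow regions the KO against WT change differed between E15.5 and E12.5 in the interaction test of edgeR with depth scaling. At chr10:120550201-120554600, outside genes, the difference was 2.09 on the log2 scale (SE 0.53, adjusted p = 0.00508), and 1.52 with TMM factors (edgeR adjusted p = 0.0267), so this region was called with both scalings.

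The other 6 were not called with TMM factors by edgeR. The difference was 2.08 at Pappa (SE 0.56, adjusted p = 0.0101), 2.07 at Adamtsl1 (SE 0.54, adjusted p = 0.00675) and 1.91 at Pqlc3 (SE 0.52, adjusted p = 0.0116). It was 1.83 at chr10:117495201-117503000 (SE 0.53, edgeR adjusted p = 0.0204), 1.81 at chr12:104633201-104642000 (SE 0.52, adjusted p = 0.0182) and 1.33 at Hmga2 (SE 0.42, adjusted p = 0.0336). Per covered length all 7 had an edgeR adjusted p of 0.995.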

How the results depend on the processing

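The calls depend on the scaling and on how much of a region a list covers. For KO against WT at E12.5, 30 narrow regions were lower with TMM factors, 31 with DESeq2, 80 in a fit of only the 6 libraries compared, 0 among the 9 narrow regions covered alike within 1.5-fold and 1 per covered length, and the higher count was 7 with TMM factors and 13 with DESeq2. Leaving out 1 library gave 62 to 669 lower and 0 to 1 higher. At E15.5 the lower count was 7 with TMM factors, 10 with DESeq2, 5 with only the 6 libraries, 0 with like cover and 1 per covered length, and the higher count was 11, 18, 7, 0 and 0. Leaving out 1 library gave 0 to 3 lower and 0 to 2 higher. Over both stages the lower count was 29 with TMM factors, 29 with DESeq2, 1 with like cover and 3 per covered length, and the higher count was 22 with TMM factors, 27 with DESeq2 and 0 per covered length. Leaving out 1 library gave 19 to 355 lower and 0 to 2 higher. For the difference between the stages the higher count was 3, 4, 0 and 0 with TMM factors, DESeq2, like cover and per covered length, the lower count was 1 and 2 with TMM factors and DESeq2, and leaving out 1 library gave 6 to 418 higher and 0 to 0 lower.

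For stage in WT, with TMM factors, DESeq2, like cover and per covered length, the higher count was 74, 97, 1 and 5 and the lower count 188, 143, 2 and 19. Leaving out 1 library gave 7 to 14 and 239 to 519. For stage in KO the higher count was 104, 109, 2 and 16 and the lower count 113, 116, 0 and 17, and leaving out 1 library gave 25 to 99 and 12 to 52. With like cover fewer regions are tested. The cause of the other shifts was not tested. Same-numbered replicates are not paired by the labels, and the correlation of their deviations ran from -0.30 to 0.25 over 18 pairs, with 4 of 12 libraries closest to one of their own number. With the replicate number as a block the interaction count was 58 higher and the count over both stages 2 higher, and no other count moved by over 1.5 times.

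Intervals with scores of at least 100 left 174 narrow regions, a width below 8 kb 571, and leaving out 1 library 906 to 1090. Counting all annotated genes, 86.6% held a start or end. Per covered length the group levels were 22.1, 19.0, 19.0 and 16.3 scaled counts per kb, in the order E12.5 WT, E12.5 KO, E15.5 WT and E15.5 KO, and leaving out 1 library gave 13.8 to 16.6, 8.14 to 10.7, 8.36 to 9.48 and 8.68 to 9.65 per kb of union width.

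Of 2273 refits of the 128 calls at named regions, 1746 kept the call, 520 lost it and 7 turned in sign. Those 7 were Foxo3 over both stages (0.18 per covered length), chr12:104633201 at E12.5 (0.45 per covered length) and in the interaction (-0.36 per covered length), Pdzrn3 at E12.5 (0.08 per covered length) and for stage in WT (0.78 per covered length), and at E12.5 with DESeq2 Kcnk12 (0.00) and Sox18 (0.03). Counts of 5 to 2562 per interval of a narrow region limit the precision of single regions.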
